A study of Mus musculus with 8 samples.

Results

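The genes described here encode the actin-based thin filament of striated muscle and the proteins that cap it: cardiac and skeletal alpha-actin (Actc1 and Acta1), the troponins Tnnt2, Tnnt1, Tnni1, Tnni3 and Tnnc1, the tropomyosin Tpm1, the tropomodulin Tmod1 and the leiomodin Lmod2. They were chosen by gene symbol, 10 of the 20701 symbols measured, and each was read from the transcript entry with the highest summed read count. RNA sequencing was performed on pharyngeal mesoderm and hearts dissected from single C57BL/6 mouse embryos at E8.75 (6 somites), 4 of them homozygous for the Isl1 knockout allele (Isl1-/-) and 4 wild-type, with 1 library per embryo. Isl1 is a homeodomain transcription factor required in progenitors of the heart, and the comparison asked which genes changed in the forming heart without it. The knockout was not restricted to a cell type, and heart muscle cells were not separated from the surrounding mesoderm.

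In striated muscle, actin monomers polymerise into thin filaments on which tropomyosin lies as a continuous strand. At low calcium the troponin complex holds tropomyosin over the myosin-binding sites: troponin T anchors the complex to tropomyosin, troponin I inhibits the interaction of actin with myosin, and troponin C binds calcium and releases the inhibition. Tropomodulin caps the pointed end of the filament and leiomodin promotes its elongation there. The embryonic heart is known to express isoforms that are later typical of slow skeletal muscle, such as Tnni1, before the cardiac isoform Tnni3 takes over.

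Library totals, summed over the kept transcripts, lay between 23480470 and 26153039 reads for the wild type and between 18916452 and 25047013 reads for Isl1-/-. Isl1 itself, the check of the labels, was at 9.72, 9.76, 26.9 and 23.3 CPM (TMM-scaled counts per 1000000 reads) in wild-type embryos 1 to 4. In Isl1-/- embryos it was at 1.78 to 2.4 CPM. The highest Isl1 level was thus that of wild-type embryo 3. The labels list total RNA as the molecule of Isl1-/- embryo 2, whereas 7 libraries are listed as polyA RNA. Without that embryo, 3 of the 10 genes (Tnnt2, Tnnc1 and Tpm1) fell past the threshold used below, as did 105 of all 14171 genes tested. It was the lowest Isl1-/- embryo for 7 of the 10 genes and the highest for 1. Without Isl1-/- embryo 2 the log2 fold change was -0.82 for Actc1 and -0.43 for Lmod2, against -0.91 and -0.61 with all embryos. Of the 10 genes, only Tpm1 went the other way (-0.52 against -0.50). Leaving out the lowest Isl1-/- embryo of a gene that fell makes its decrease smaller by construction. Wild-type embryo 3 stood apart for the thin filament: it was the lowest wild-type embryo for all 10 genes. In the same embryo the summed level of 10 heart muscle markers was 1923 CPM against 2642 to 2814 CPM in the other wild-type embryos, the summed level of the red cell markers was 379 CPM against 1213 to 2446 CPM, and the summed level of the endoderm markers was 1286 CPM against 570 to 1124 CPM. In Isl1-/- embryos 1 to 4 the summed level of the endoderm markers was 556, 1880, 1708 and 635 CPM. The part of these differences in the results was not tested, and values without wild-type embryo 3 are given beside the results below. Leaving out the lowest wild-type embryo of a gene that fell makes its decrease larger by construction. The larger decreases without this embryo, and their FDR values, are therefore not added evidence.

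All 10 genes had a lower mean in Isl1-/- than in wild-type embryos, and 5 of them fell past an edgeR FDR of 0.05: Actc1, Tnnt2, Tnnc1, Tnni1 and Tpm1. Of all 14075 genes tested, 122 (0.867%) fell past that threshold and 6868 had a negative log2 fold change. The median log2 fold change of the 10 genes was -0.84, with a range from -1.0 (Tnnc1) to -0.40 (Tmod1), and that of all genes tested was 0.01. By the thresholds of the study, a 1.5-fold decrease with an unadjusted p-value under 0.05, 7 of the 10 were selected, against 314 of 14075 genes (2.23%). In 8 of the 10, all but Tnni3 and Lmod2, every Isl1-/- embryo was below every wild-type embryo, which held for 891 of 14075 genes (6.33%). The DESeq2 Wald test called 9 of the 10, all but Lmod2, against 468 of the 13246 genes to which it gave an adjusted p-value (3.53%). The tissue was sequenced in bulk, so fewer heart muscle cells and less thin filament RNA per cell cannot be told apart. The number of genes called rested on single embryos. Without wild-type embryo 3, 9 of the 10 passed the FDR, and the number falling past it over all genes rose to 384 of 14179. Leaving out any other single embryo left 2 or 3 of the 10, with 67 to 105 genes falling past the FDR in all. Tnnt2 and Tnnc1 were always among those left.

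**Figure D1:**
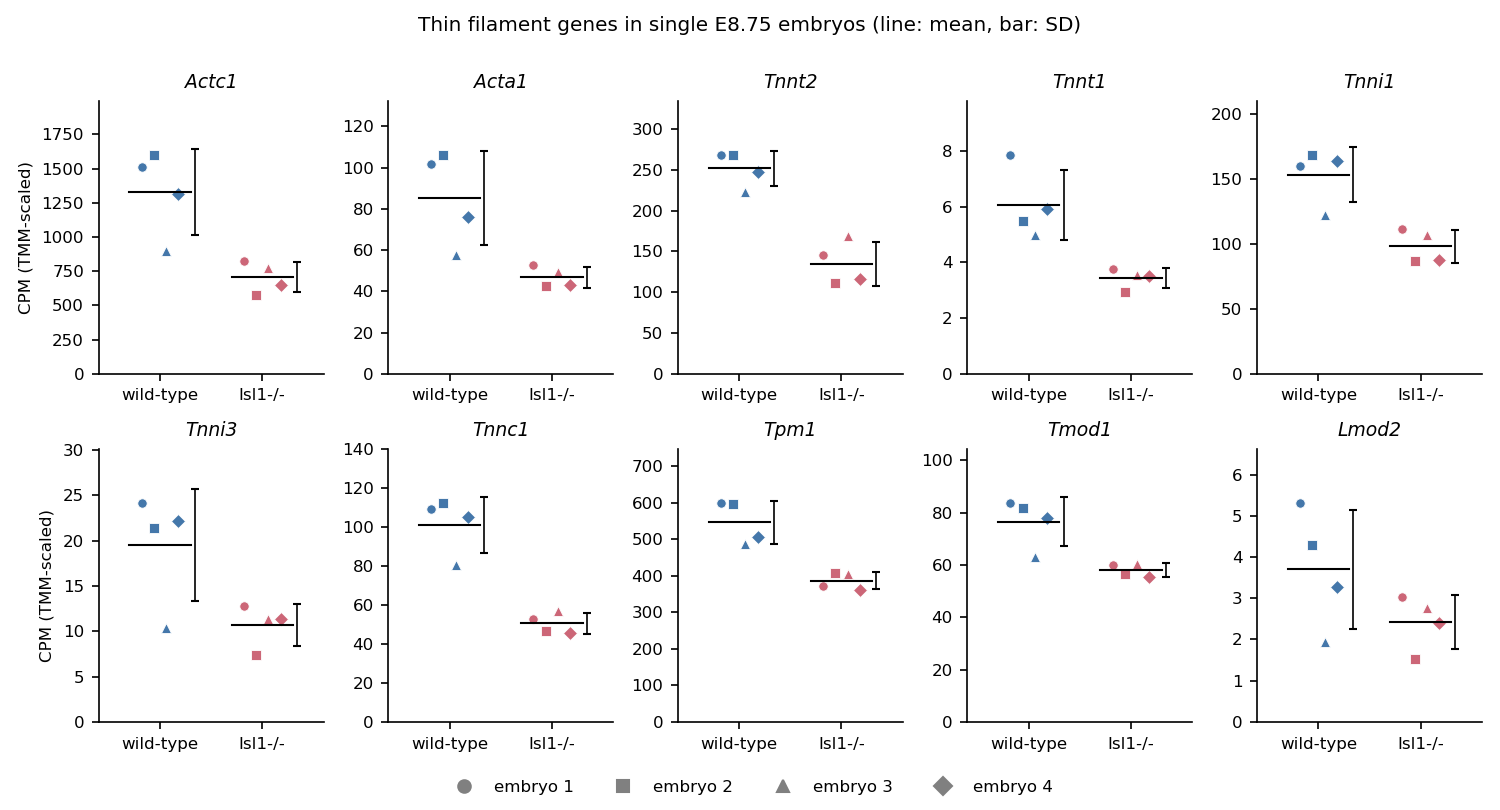
CPM (TMM-scaled, linear axes from 0) of the 10 thin filament genes in each of 4 wild-type (blue) and 4 Isl1-/- (red) embryos, with the marker shape giving the embryo number, lines at the group means and bars showing the SD. Wild-type embryo 3 (triangle) was the lowest wild-type point in all 10 panels, and the groups overlapped in the Tnni3 and Lmod2 panels.

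Actc1 encodes cardiac alpha-actin, the main sarcomeric actin of the heart (NM_009608; chromosome 2, 113873018 to 113879284, minus strand, mm9). Values are given in the order of embryos 1 to 4 of each genotype throughout. Actc1 was at 1510, 1597, 895 and 1311 CPM in the 4 wild-type embryos and at 824, 579, 775 and 651 CPM in the 4 Isl1-/- embryos. The groups did not overlap, but wild-type embryo 3 lay close to the Isl1-/- embryos, and the gap between it and the highest of them was 7.9%. The mean fell from 1328 ± 313 to 707 ± 112 CPM (SD, n = 4 each), to 53.2% of the wild-type mean (log2 fold change -0.91, SE 0.18, edgeR FDR 0.048). Without wild-type embryo 3 the log2 fold change was -1.06 (edgeR FDR 0.00402), and the call was lost when any other single embryo was left out and with a covariate for Y-linked genes (edgeR FDR 0.0987), whose reads were seen in 1 of 4 wild-type and 3 of 4 Isl1-/- embryos.

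Acta1, skeletal alpha-actin, is co-expressed with Actc1 in the early heart (NM_001272041; chromosome 8, 126415669 to 126418651, minus strand, mm9). It was at 102, 106, 57.4 and 76.0 CPM in the 4 wild-type embryos and at 52.9, 42.4, 49.3 and 42.9 CPM in the 4 Isl1-/- embryos. Again the groups did not overlap and wild-type embryo 3 was nearest to the knockout range, with a gap of 7.79%. The log2 fold change of -0.86 (SE 0.18) did not pass the FDR (edgeR FDR 0.0587), whereas it did without wild-type embryo 3 (-1.01, edgeR FDR 0.00542). The second Acta1 entry (NM_009606) gave nearly the same counts. The coding sequences of Actc1 and Acta1 were identical at 977 of 1134 bases (86.2%), with a longest identical stretch of 29 bases, and how the authors treated reads that match several genes is not given in the sources used here, so the smaller Acta1 level is uncertain to the extent that reads were shared.

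The promoter windows of the alpha-actin genes are shown because both contained a CArG box, the motif bound by serum response factor, which is known to regulate muscle actins. Windows were taken from RefSeq (GRCm38.p6), 250 bases before to 50 bases after the annotated start. The Actc1 window lies at chr2:114052826-114053125 and the Acta1 window at chr8:123894726-123895025, both on the minus strand. Capitals mark the CArG box and, in Acta1, also a CATTCC match, the core of the M-CAT element bound by TEAD factors.
Actc1: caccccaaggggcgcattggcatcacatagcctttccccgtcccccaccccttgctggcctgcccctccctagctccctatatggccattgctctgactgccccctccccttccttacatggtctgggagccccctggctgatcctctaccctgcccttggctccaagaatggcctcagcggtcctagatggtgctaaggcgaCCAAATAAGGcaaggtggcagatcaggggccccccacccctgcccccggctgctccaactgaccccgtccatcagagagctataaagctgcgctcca
Acta1: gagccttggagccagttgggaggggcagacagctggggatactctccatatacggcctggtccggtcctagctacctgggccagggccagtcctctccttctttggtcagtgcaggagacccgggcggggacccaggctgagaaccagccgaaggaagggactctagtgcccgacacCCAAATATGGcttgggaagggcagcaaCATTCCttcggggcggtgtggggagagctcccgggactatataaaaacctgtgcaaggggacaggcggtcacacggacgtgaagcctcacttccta
The CArG box began 47 bases before the annotated start in Actc1 and 73 bases before it in Acta1. On either strand it was present in 2 of the 12 windows of the 10 genes and in 535 of all 32851 windows (1.63%). These matches describe the sequence and were not tested as binding sites.

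Among the troponin T genes, Tnnt2, the cardiac isoform, was the main transcript (NM_001130177; chromosome 1, 137737452 to 137748837, plus strand, mm9). Tnnt2 was at 268, 268, 223 and 248 CPM in the 4 wild-type embryos and at 146, 111, 169 and 116 CPM in the 4 Isl1-/- embryos. The groups were well separated, and the highest Isl1-/- embryo (embryo 3) was below the lowest wild-type embryo. Tnnt2 fell to 53.8% of the wild-type mean (log2 fold change -0.90, SE 0.13, edgeR FDR 0.00994), and the call held in all 14 alternative analyses, with FDR values from 2.41e-09 to 0.0452 (without wild-type embryo 3, -0.95 and edgeR FDR 0.0095). Its 9 transcript entries had nearly the same counts and each had a log2 fold change of -0.88 when all entries were fitted together.

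Tnnt1, the slow skeletal troponin T, was weakly expressed (NM_001277904; chromosome 7, 4456172 to 4467984, minus strand, mm9). Its level was 7.85, 5.5, 4.97 and 5.93 CPM in the 4 wild-type embryos, against 3.75, 2.94, 3.56 and 3.52 CPM in the 4 Isl1-/- embryos. The groups did not overlap, wild-type embryo 1 was the highest and the Isl1-/- embryos lay close together. The log2 fold change of -0.82 (SE 0.17) did not pass the threshold (edgeR FDR 0.0622) and passed without wild-type embryo 3 (-0.90, edgeR FDR 0.0311).

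Tnni1 encodes slow skeletal troponin I, the troponin I of the embryonic heart (NM_021467; chromosome 1, 137679642 to 137707566, plus strand, mm9). Its level was 160, 168, 122 and 164 CPM in the 4 wild-type embryos, against 111, 86.8, 107 and 87.6 CPM in the 4 Isl1-/- embryos. Wild-type embryos 1, 2 and 4 lay close together while embryo 3 was lower, yet still above every Isl1-/- embryo. Tnni1 fell to 63.8% of the wild-type mean (log2 fold change -0.65, SE 0.12, edgeR FDR 0.0364), and without wild-type embryo 3 the value was -0.74 (edgeR FDR 0.00542). The call was lost without wild-type embryo 1, 2 or 4 or Isl1-/- embryo 2, 3 or 4, with log2 fold changes of -0.59 or lower throughout.

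Tnni3, the cardiac troponin I of the later heart (NM_009406; chromosome 7, 4469907 to 4475831, minus strand, mm9), was at 24.1, 21.4, 10.4 and 22.2 CPM in the 4 wild-type embryos. In the 4 Isl1-/- embryos it was at 12.8, 7.42, 11.3 and 11.3 CPM. The groups overlapped, and wild-type embryo 3 was below 3 of the 4 Isl1-/- embryos. With all embryos its log2 fold change of -0.87 (SE 0.26) had an edgeR FDR of 0.137, and the value was -1.08 (edgeR FDR 0.0142) without wild-type embryo 3.

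Tnnc1 encodes the calcium-binding troponin C of cardiac and slow skeletal muscle (NM_009393; chromosome 14, 32021498 to 32024915, plus strand, mm9). It was at 109, 112, 80.3 and 105 CPM in the 4 wild-type embryos and at 53, 46.6, 57.1 and 45.4 CPM in the 4 Isl1-/- embryos. The lowest wild-type embryo was well above the highest Isl1-/- embryo. Tnnc1 fell to 49.9% of the wild-type mean, the lowest share among the 10 genes (log2 fold change -1.0, SE 0.12, edgeR FDR 0.00337), and stayed past the threshold in all 14 alternatives (-1.10 to -0.95). The value without wild-type embryo 3 was -1.10 (edgeR FDR 0.00239).

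A promoter window each of Tnnt2 and Tnnc1 is shown because these 2 genes passed the threshold in all alternatives, with matches to CATTCC or its reverse complement in capitals. Tnnt2 has 2 windows, of which the one without a match, at chr1:135836739-135837038, is not shown. The Tnnt2 window shown lies at chr1:135836084-135836383 and the Tnnc1 window at chr14:31208062-31208361, both on the plus strand (RefSeq, GRCm38.p6).
Tnnt2: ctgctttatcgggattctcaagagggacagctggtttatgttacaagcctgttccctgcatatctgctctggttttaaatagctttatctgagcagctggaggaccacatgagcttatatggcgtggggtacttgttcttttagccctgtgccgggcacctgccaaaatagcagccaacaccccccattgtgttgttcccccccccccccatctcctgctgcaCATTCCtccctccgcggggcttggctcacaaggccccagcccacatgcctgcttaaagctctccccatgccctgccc
Tnnc1: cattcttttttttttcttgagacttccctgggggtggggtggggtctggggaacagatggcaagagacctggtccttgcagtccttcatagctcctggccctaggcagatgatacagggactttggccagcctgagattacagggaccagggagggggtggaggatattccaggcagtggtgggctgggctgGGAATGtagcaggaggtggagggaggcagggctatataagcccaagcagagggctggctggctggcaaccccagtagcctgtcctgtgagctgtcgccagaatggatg
CATTCC was found in 5 of the 12 windows, those of Acta1, Tmod1, Tnnc1, Tnnt2 and Tpm1, and in 14.7% of all windows. The E-box pattern CANNTG, which basic helix-loop-helix factors bind, was found in 11 of 12 windows and in 72.3% of all windows. AGATAA, which zinc-finger factors of the heart recognise, occurred in 1 window (Tnnt2, with 11.2% of all windows), and the homeodomain motif CTAATG in 0 of 12 (7.36% of all windows).

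Troponin genes lie in the genome as pairs of a troponin I and a troponin T gene. Tnni1 and Tnnt2 were 29885 bases apart on chromosome 1, with Lad1 between them, and Tnni3 and Tnnt1 were 1922 bases apart on chromosome 7 with no gene between them (mm9). Each pair joins a gene named for slow skeletal muscle to a gene named for the heart. The log2 fold changes were -0.65 and -0.90 in the first pair and -0.87 and -0.82 in the second.

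Tpm1 encodes alpha-tropomyosin, expressed in striated muscle and, from other splice forms, in most cells (NM_024427; chromosome 9, 66870397 to 66897213, minus strand, mm9). It was at 598, 597, 487 and 505 CPM in the 4 wild-type embryos and at 372, 407, 406 and 361 CPM in the 4 Isl1-/- embryos. The groups did not overlap, and the Isl1-/- embryos varied little. Tpm1 fell to 70.7% of the wild-type mean (log2 fold change -0.50, SE 0.08, edgeR FDR 0.0239). Without wild-type embryo 3 the log2 fold change was -0.55 (edgeR FDR 0.00996). The call was lost without wild-type embryo 1 or 2 or Isl1-/- embryo 1, 3 or 4, and with a Y-linked covariate (edgeR FDR 0.107). The log2 fold change of Tpm1 lay between -0.55 and -0.43 over all 14 alternative analyses.

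Tmod1 encodes the tropomodulin of striated muscle and red cells (NM_021883; chromosome 4, 46051807 to 46128904, plus strand, mm9). It was at 83.5, 81.7, 63.2 and 77.9 CPM in the 4 wild-type embryos and at 60, 56.5, 60.4 and 55.4 CPM in the 4 Isl1-/- embryos. The groups did not overlap, with a gap of 4.4% between wild-type embryo 3 and the highest Isl1-/- embryo. Its log2 fold change of -0.40 (SE 0.09) did not pass (edgeR FDR 0.0772), and it was -0.48 without wild-type embryo 3 (edgeR FDR 0.00625). Of 10 red cell markers, 9 were in the table, and their 9 log2 fold changes ran from 0.15 to 0.65 with 0 past the FDR. Their summed level was 379 to 2446 CPM in wild-type and 1296 to 3230 CPM in Isl1-/- embryos, lowest in wild-type embryo 3 and highest in Isl1-/- embryo 2. The part of red cells in the Tmod1 level was not tested.

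Lmod2, the cardiac leiomodin, was the weakest of the 10 genes (NM_053098; chromosome 6, 24547771 to 24555414, plus strand, mm9). It was at 5.30, 4.30, 1.94 and 3.27 CPM in the 4 wild-type embryos and at 3.02, 1.53, 2.77 and 2.40 CPM in the 4 Isl1-/- embryos. The groups overlapped, with wild-type embryo 3 below 3 Isl1-/- embryos. The log2 fold change of -0.61 (SE 0.32, edgeR FDR 0.358) passed the FDR in none of the 14 alternatives (without wild-type embryo 3, -0.82 and edgeR FDR 0.105), and at 37 to 127 reads per library the counting error was larger than for the other genes.

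Per kilobase of transcript (RPKM, from the TMM-scaled CPM and the deposited lengths), the wild-type order was Actc1 (916 ± 216), Tpm1 (323 ± 34.8), Tnnt2 (209 ± 17.5), Tnnc1 (146 ± 20.5), Tnni1 (143 ± 19.6), Acta1 (54.6 ± 14.5), Tmod1 (26.8 ± 3.23), Tnni3 (24.0 ± 7.59), Tnnt1 (6.19 ± 1.28) and Lmod2 (1.89 ± 0.733; all SD, n = 4). Neighbours in that order did not overlap between embryos except Tnnc1 with Tnni1 and Tmod1 with Tnni3. In Isl1-/- embryos the order differed only in that Tnni1 (91.1 ± 11.7) stood above Tnnc1 (72.7 ± 7.97), in 4 of 4 embryos. There the ranges of Tnnt2 (112 ± 22.4) and Tnni1 overlapped, as did those of Tnni1 and Tnnc1.

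**Figure D2:**
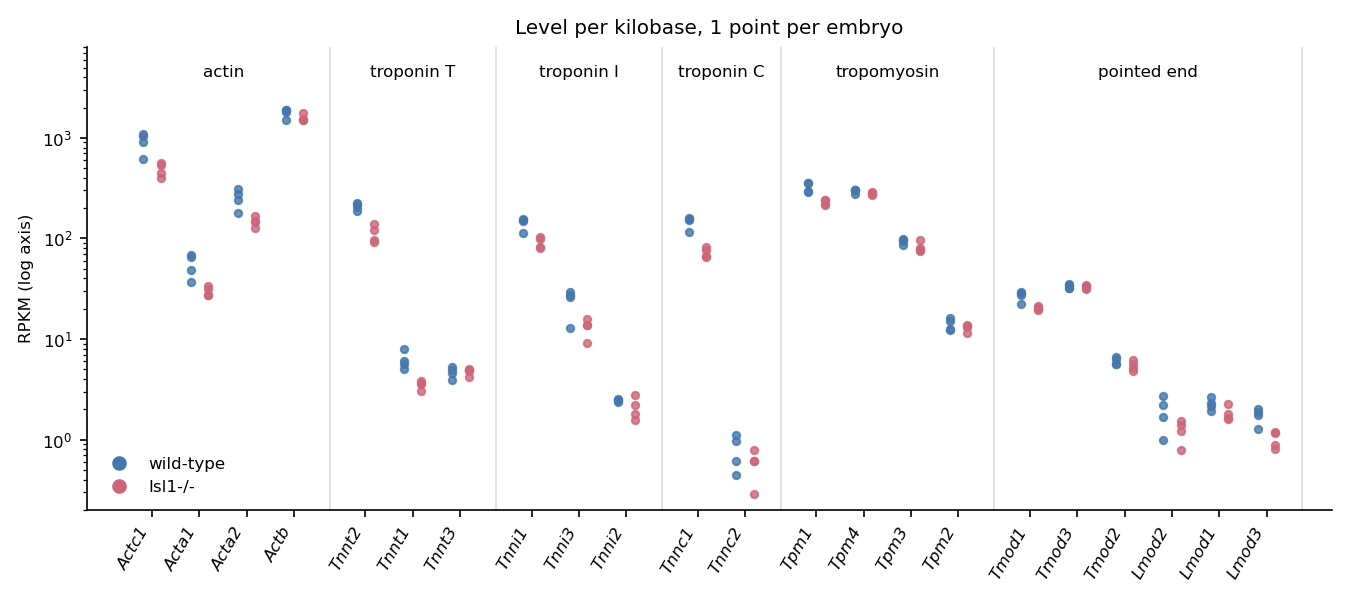
RPKM on a log axis of the thin filament genes and their paralogues by protein family, 1 point per embryo (blue wild-type, red Isl1-/-). Actc1, Tnnt2, Tnni1, Tnnc1 and Tpm1 were the highest muscle members of their families, while the ranges of Tpm4 and of Tmod3 overlapped between the groups.

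The slow skeletal and cardiac isoforms were then compared within each embryo, as the log2 ratio of (count + 0.5) per kilobase, in which library scaling cancels. For troponin I, Tnni1 over Tnni3 was 2.33, 2.57, 3.15 and 2.49 in the 4 wild-type embryos, against 2.72, 3.14, 2.83 and 2.55 in the 4 Isl1-/- embryos. Wild-type embryo 3 had the highest value of all 8, and the groups overlapped. Tnni1 was therefore 5.03 to 8.87 times as abundant per length as Tnni3 in wild-type embryos and 5.85 to 8.83 times in Isl1-/- embryos. The means differed by 0.18 (SE 0.22, exact two-sided permutation p = 0.4571, n = 4 each). Shifts between -0.60 and 0.81 were not rejected at 0.05 by that test. Without wild-type embryo 3 the difference was 0.35 (exact permutation p = 0.1143, where the smallest possible value is 0.0571).

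For troponin T, Tnnt1 over Tnnt2 was -4.79, -5.30, -5.19 and -5.08 in wild-type and -4.98, -4.93, -5.26 and -4.73 in the 4 Isl1-/- embryos. The groups overlapped, and Tnnt1 was at 0.0253 to 0.0376 of the Tnnt2 level in every embryo. The means differed by 0.12 (SE 0.15, exact two-sided permutation p = 0.4571), and shifts from -0.47 to 0.57 were not rejected. Without wild-type embryo 3 the difference was 0.08. For alpha-actin, Acta1 over Actc1 was -4.00, -4.02, -4.07 and -4.21 in wild-type and -4.07, -3.88, -4.08 and -4.03 in the 4 Isl1-/- embryos. The difference of 0.06 (SE 0.07, exact two-sided permutation p = 0.5143) came with an interval from -0.08 to 0.33, and it was 0.07 without wild-type embryo 3. This was the narrowest of the 3 intervals, and with adjustment over the 3 ratios each p was 0.5143. The smallest p that 4 against 4 embryos allow is 0.0286. A change in isoform ratio was thus not detected for any of the 3 pairs, with limits that still allow a shift of up to 0.81 on the log2 scale for troponin I.

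**Figure D3:**
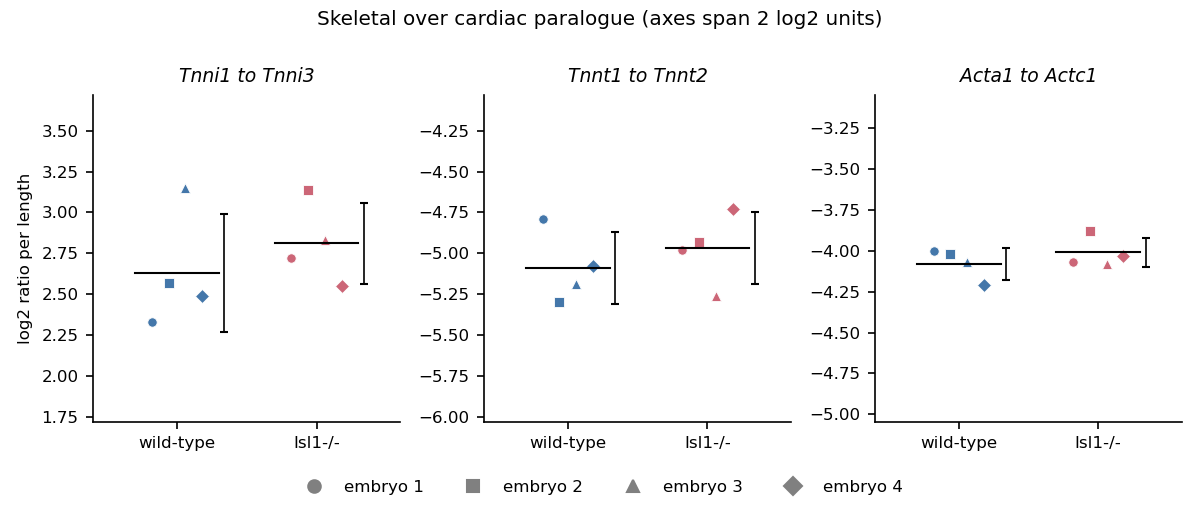
Log2 ratio per length of the skeletal over the cardiac paralogue for troponin I, troponin T and alpha-actin in each embryo, with group means as lines and SD as bars; each vertical axis spans 2 log2 units. The points of both groups overlapped in all 3 panels, and wild-type embryo 3 had the highest Tnni1 to Tnni3 ratio of the 8 embryos.

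Other members of the same gene families, together with further actin-binding proteins of muscle, were examined as a list of 20 relatives, all of them tested. Of these, 4 fell past the FDR, 0 rose past it and 16 did not pass, whereas 122 of all 14075 genes tested (0.867%) fell past it. A negative log2 fold change was seen in 17 of the 20 and in 6868 of the 14075. The median was -0.20 against 0.01 for all genes. The 4 were Acta2, the smooth muscle alpha-actin that the early heart also expresses (-0.77, edgeR FDR 0.048), Nebl, nebulette, a cardiac Z-disc protein that binds actin (-0.78, edgeR FDR 0.00628), Cap2, an actin-regulating cyclase-associated protein of striated muscle (-0.70, edgeR FDR 0.00367), and Xirp1, an actin-binding protein of the intercalated disc (-1.05, edgeR FDR 0.00389). Xirp1 was at 30.1, 29.3, 33.4 and 33.1 CPM in the 4 wild-type embryos and at 16.2, 13.1, 18.5 and 13 CPM in the 4 Isl1-/- embryos. Cap2 was at 87.4, 89.5, 97.3 and 83 CPM in wild-type and at 61.9, 52.1, 55.7 and 50.1 CPM in Isl1-/- embryos. In both genes wild-type embryo 3 was the highest of the 8 embryos. In the other 2 it was the lowest wild-type embryo, as in the 10 thin filament genes, with 463 CPM of Acta2 against 624 to 789 CPM and 45.5 CPM of Nebl against 51.3 to 61.8 CPM in the other wild-type embryos.

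The fast skeletal troponins had log2 fold changes of 0.01 (Tnnt3, edgeR FDR 0.98), -0.24 (Tnni2, edgeR FDR 0.611) and -0.42 (Tnnc2, edgeR FDR 0.634). They were weak, with means of 4.97, 1.62 and 0.537 CPM in wild-type embryos. Of 11 skeletal muscle markers, 5 (Myod1, Myog, Myf6, Ckm and Myh3) were too weak to be tested and 0 of the other 6 passed the FDR, and the summed level of the list was 23.9 to 29.5 CPM in wild-type and 26.9 to 35.8 CPM in Isl1-/- embryos. Of the other tropomyosins, Tpm4, a form of non-muscle cells, had a log2 fold change of -0.08, Tpm3, which encodes slow skeletal and non-muscle forms, -0.19, and Tpm2, the beta-tropomyosin of striated and smooth muscle, -0.11. Of the tropomodulins, Tmod3 was at -0.03 and Tmod2 at -0.14, and 0 of these 5 genes passed the FDR. Tmod4, weak with a mean of 0.321 CPM in wild-type embryos, was higher in Isl1-/- embryos (0.81) and did not pass (edgeR FDR 0.325). Lmod1 was at -0.31 (edgeR FDR 0.339) and Actg2 at -0.12 (edgeR FDR 0.761). Beta-actin (Actb) was at -0.17 (edgeR FDR 0.345). Lmod3, the leiomodin of skeletal muscle, was at -0.78 and did not pass (edgeR FDR 0.0993). Gamma-actin (Actg1) was at -0.69 (edgeR FDR 0.0866), on a low level of 40.6 CPM in wild-type embryos against 3381 CPM for Actb, and because Actg1 has near-identical copies its level is uncertain.

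**Figure D4:**
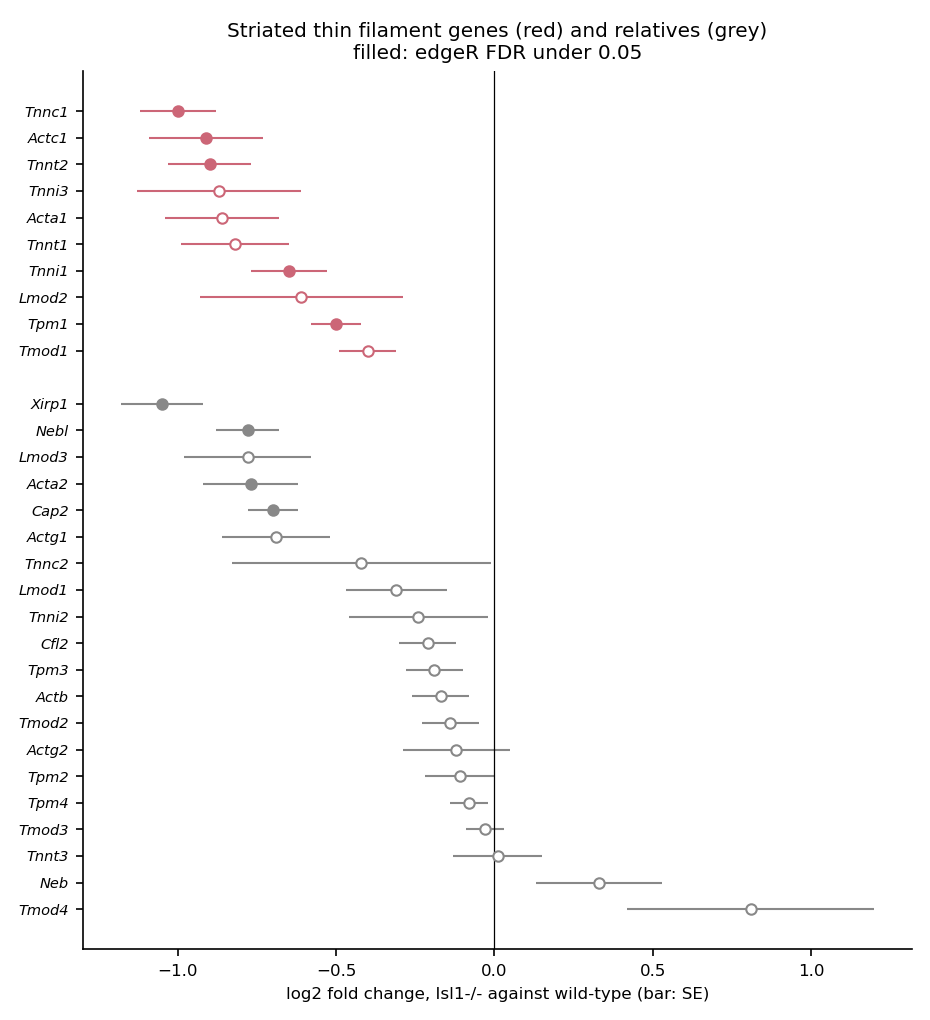
Log2 fold change of Isl1-/- against wild-type embryos (edgeR, bars show the SE, n = 4 each) for the 10 thin filament genes (red) and 20 relatives (grey), with filled points past an FDR of 0.05. Filled points are 5 of 10 in red and 4 of 20 in grey, all to the left of 0.

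The make-up of each family is given here as shares of its summed RPKM. Tpm1 took 44.3% ± 1.84 of the tropomyosin level in wild-type and 37.8% ± 1.01 in Isl1-/- embryos (SD, n = 4), and Tpm4 took 40.8% ± 1.65 and 46.4% ± 1.67. By this measure Tpm1 was the leading tropomyosin in 3 of 4 wild-type embryos and Tpm4 in all Isl1-/- embryos. That order depends on the 1691-base length of the kept Tpm1 entry. The 1198-base entry NM_001164251 had 96.3 to 99.3% of its count in wild-type and 81.6 to 93.4% in Isl1-/- embryos. With that entry the Tpm1 share would be larger, so which tropomyosin leads is uncertain. Tmod1 took 40.0% ± 2.7 and 34.3% ± 2.09 of the tropomodulin level, next to Tmod3 with 50.5% and 55.7%. Tnnt2 took 95.1% ± 0.406 and 93.0% ± 1.19 of troponin T, with Tnnt3 at 2.13% ± 0.105 and 4.03% ± 0.901. Within troponin I, Tnni1 held 84.6% ± 2.48 and 85.7% ± 1.86, values closer together than the embryos of either group. Shares within a family are not independent of each other, and they were not tested.

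Thick filament genes were examined for side by side values. Of 11 genes of the thick filament and titin, 10 were tested (Myom2 was too weak), 7 fell past the FDR (0.867% of all genes tested did), and the log2 fold changes ran from -1.38 to -0.78 with a median of -1.06. Of 10 heart muscle markers, 7 fell past the FDR against the same share of all genes. The lists are not separate: 6 markers (Myh6, Myh7, Myl2, Myl4, Myl7 and Ttn) are also in the thick filament list, and 4 of these were among the genes called in both. The markers' summed level was 1923 to 2814 CPM in wild-type and 930 to 1539 CPM in Isl1-/- embryos. The mean log2(CPM + 1) of these markers was 7.30, 7.26, 6.52 and 7.22 in the 4 wild-type embryos, against 6.11, 5.73, 6.32 and 6.03 in the 4 Isl1-/- embryos, a difference of -1.02. Relative to that mean, and on the same scale, the difference between genotypes ran without a break from 0.04 for Tnnc1 over Tnnt2 (0.12), Actc1 (0.14), Acta1 (0.21), Tnni3 (0.25), Tnnt1 (0.37), Tnni1 (0.38), Tpm1 (0.53) and Lmod2 (0.60) to 0.64 for Tmod1. The added 1 CPM shrinks differences of weak genes, so the values of Lmod2 (fitted log2 fold change -0.61) and Tnnt1 (-0.82) are too high on this scale. This is a description, without a test.

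Variation among embryos was described by correlation. Over the 8 embryos, the genes outside these 10, their 20 relatives and the thick filament list whose log2(CPM + 1) was most like that of Actc1 were Esco1 (Pearson r 0.989), Klhl30 (0.987), Actn2 (0.985), Trim55 (0.984) and Parl (0.979). Acta1 reached 0.986 and Tnni1 0.984 with Actc1, and Lmod2 had the lowest value of the 9, 0.867. After the group means were removed, the 45 pairs of the 10 genes correlated at 0.36 to 0.95 with a median of 0.82. Without wild-type embryo 3 these values ran from -0.33 to 0.98 with a median of 0.64. The genes come from the same 8 libraries, so these values describe the embryos and carry no test.

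The 10 genes were represented by 31 transcript entries, 10 of Tpm1, 9 of Tnnt2, 3 of Tnnt1, 2 each of Tnni1 and Acta1 and 1 of each other gene. Fitted together with all other entries, all 31 had a negative log2 fold change and 25 passed the FDR, including all 10 of Tpm1, while 261 of all 23301 entries (1.12%) fell past the FDR in that fit. Entries of a gene share most of their reads and are not independent. Those of Tnnt2, Tnnt1, Tnni1 and Acta1 differed by at most 0.02 in log2 fold change, whereas those of Tpm1 ranged from -0.66 to -0.44. The entries of 1691 and 1665 bases lay between -0.49 and -0.44 and those of 1198, 1172, 1566 and 1540 bases between -0.66 and -0.63.

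Tpm1 entries were also compared within each embryo. The count of the 1198-base entry NM_001164251, as a percentage of that of NM_024427, was 98.4, 97.5, 96.3 and 99.3 in the 4 wild-type embryos, against 93.4, 81.6, 92.6 and 83.2 in the 4 Isl1-/- embryos. All Isl1-/- embryos were below all wild-type embryos, and embryos 2 and 4 were lowest. Isl1-/- embryo 2 is the library listed as total RNA, and the part of that label in its value was not tested. For NM_001164250, of the same 1691 bases as NM_024427, the corresponding ranges were 98.1 to 98.7 and 99 to 99.7. Which exons separate these entries was not examined here, and the ratios were not tested because the entries share reads.

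**Figure D5:**
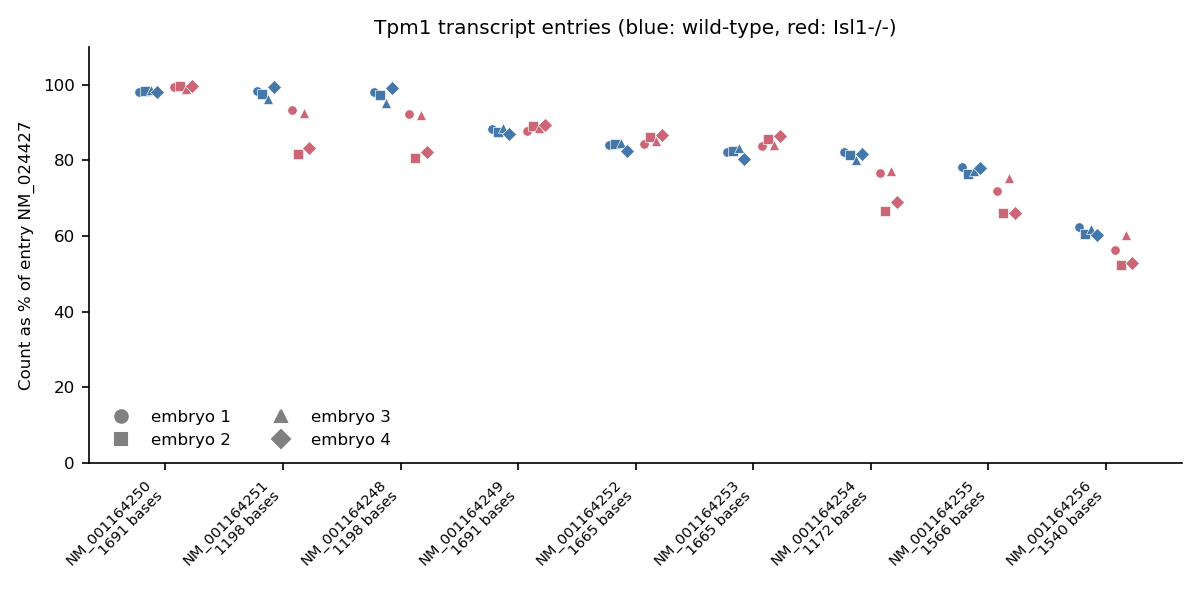
Read count of 9 Tpm1 transcript entries as a percentage of the count of entry NM_024427 in the same embryo (vertical axis from 0), with the length of each entry in bases, blue for wild-type and red for Isl1-/- embryos. For the 1198-base entry NM_001164251 the wild-type embryos sit between 96.3 and 99.3 and the Isl1-/- embryos between 81.6 and 93.4.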

How the data were processed

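RNA was taken from single embryos, 100 ng was used per library, and sequencing was performed on NextSeq500. The authors mapped reads to mm9 with STAR and counted reads of both strands over exons of RefSeq transcripts with HOMER (versions not given in the sources used here). The deposited counts were raw reads per transcript without regard to strand, so a gene and its antisense partner cannot be separated. The deposited RPKM were made by the authors with edgeR, and the deposited length column gave bases. The remaining deposited columns held the authors' own DESeq2 comparison (a signal averaged over samples, log2 fold changes with errors, a Wald score and p-values) and were not used.

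Of 31507 entries, the entry with the highest summed count was kept per symbol. Genes were filtered with filterByExpr and scaled by TMM, and genotype was the single term of a quasi-likelihood fit (edgeR 4.0.16, R 4.3.3; two-sided, Benjamini-Hochberg over 14075 genes, FDR 0.05). Alternatives were DESeq2 1.42.0, DESeq2 size factors, no filter, all entries, a replicate block, a Y-linked covariate and leaving out each embryo. Ratios used a pseudocount of 0.5 counts, or 5, and exact permutation tests (scipy 1.17.1). RPKM shown were CPM per kilobase. Reads carried no molecular identifiers, so depth gives counting error only. The labels name separate embryos.

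Coordinates came from GENCODE vM1 (NCBIM37, the same assembly as mm9), and promoter windows from RefSeq (GRCm38.p6), in which all 10 genes matched. The CArG box was searched by its consensus, and the patterns named in the text as written, on both strands; none of the patterns contains another.

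Named genes were the 10 genes, those of 20 relatives that passed the FDR or are paralogues, and the 5 genes most like Actc1. Members, lists and tests were chosen with earlier results of these data known. Marker lists also covered endothelium (8 genes, 0 past the FDR), endoderm (10, 0 past) and neural cells (7, 0 past). In a smooth muscle list of 8 genes, 3 fell past the FDR, against 0.867% of all genes tested. The summed level of that list was 653 to 1036 CPM in wild-type and 466 to 593 CPM in Isl1-/- embryos.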

Additional observations from a re-analysis of the deposited data

Results flagged for a closer look

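Tnni1 in wild-type embryo 3 was flagged as a sample far from the others of its group: its level was 122 CPM, while the other wild-type embryos lay between 160 and 168 CPM, and the gap was 0.83 of the whole range of the group. Among 26 groups of 4 embryos checked, this was the only 1 flagged, and chance flags about 1 in 20 groups. Every Isl1-/- embryo was below 122 CPM, so the groups did not overlap with this embryo included.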

How the results depend on the processing

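The log2 fold change of each of the 10 genes was negative in all 14 alternatives, and Tnnt2 and Tnnc1 passed the FDR in every one. Actc1 passed in 5, Tnni1 and Tpm1 in 7 each, Acta1 in 4, Tnni3, Tnnt1 and Tmod1 in 2 each and Lmod2 in 0. The number of the 10 past the FDR, 5 in the reported fit, was 9 with DESeq2 and 3 with a Y-linked covariate, where the calls of Actc1 (edgeR FDR 0.0987) and Tpm1 (0.107) were lost (Y-linked reads were seen in 1 of 4 wild-type and 3 of 4 Isl1-/- embryos), and it ran from 2 to 9 when each embryo was left out. The number over all genes, 137 as reported, was 709 with DESeq2 and 309 entries with all transcript entries, and ran from 70 (without Isl1-/- embryo 4) to 490 (without wild-type embryo 3) when each embryo was left out. With the Y-linked covariate 97 of all 14075 genes tested fell past the FDR. DESeq2 size factors and dropping the filter left 5 and 6 of the 10. Over all genes, 125 of 14075 and 119 of 17570 fell past the FDR in those 2 fits. With the replicate block, 2 of the 10 (Tnnt2 and Tnnc1) and 76 genes in all passed, and the calls of Actc1 (0.106), Tnni1 (0.104) and Tpm1 (0.0669) were lost. Deviations of same-numbered embryos correlated at 0.0355 to 0.559 (mean 0.229), and those of other pairs at -0.704 to 0.574. Of the 8 embryos, 2 correlated best with their own number. These values do not settle whether the replicate numbers pair the embryos. The 3 isoform ratios had differences of 0.07 to 0.35 for troponin I, 0.04 to 0.22 for troponin T and 0.02 to 0.09 for alpha-actin when each embryo was left out. Those tests and the sign flips within replicate numbers cannot go below p values of 0.0571 and 0.125, so they could not have passed and say nothing about stability. With a pseudocount of 5 counts or the entry with the lowest count, exact permutation p values lay between 0.3714 and 0.4857. The cause of these shifts was not tested.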
